A study of Rattus norvegicus with 14 samples.

Results

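Biphasic mesothelioma holds an epithelioid and a sarcomatoid component in 1 tumor, and here it is described against control peritoneal tissue in male Wistar rats. The 3 tumors labelled biphasic, of 11 mesotheliomas and 14 arrays in all, were taken by their tissue label and set against the 3 control samples. The study induced peritoneal mesothelioma with a single intraperitoneal injection of multiwalled carbon nanotubes (MWCNTs) or amosite asbestos, a fibrous amphibole, in artificial lung medium. Of the biphasic tumors, 1 was induced by MWCNT D, 1 by MWCNT C and 1 by amosite asbestos, and their values are given below in that order. Differences among the 3 tumors therefore cannot be told apart from differences between inducers. The labels call the control tissue sham-treated, whereas the study's methods speak of untreated rats, so what the controls received is not settled, and no age is given in the sources used here for either group. The other 8 tumors were 5 sarcomatoid and 3 epithelioid ones. Total RNA was measured on Affymetrix whole-genome rat arrays, 1 array per sample.

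Mesothelial cells form the single-layered lining of the peritoneum and are unusual in carrying both epithelial keratins and the mesenchymal filament vimentin. Mesothelin, the Wilms tumor transcription factor WT1 and the simple keratins are the markers by which pathologists recognise cells of this origin. In an epithelioid component the cells keep junctions and keratins and grow in sheets or tubules, whereas sarcomatoid cells are spindle shaped and have fewer of them.

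Signals are given as log2(signal + 1), a difference of 1 being a 2-fold change, and values under 5 were raised to 5 where genes were ranked by their difference. A gene was called a differentially expressed gene (DEG) when its fold change exceeded 2 in either direction and its adjusted p was below 0.05. Of 31042 probe sets, 7461 (24%) were upregulated and 3169 (10.2%) downregulated in biphasic tumors against control. Counted by gene, 3959 of 14217 (27.8%) rose and 1436 (10.1%) fell, and in 9517 (66.9%) the 3 tumors did not overlap the 3 controls. Upregulated probe sets made up 70.2% of the calls, but 51.5% after quantile normalization and 45.7% after centring each array on its median. The median difference over all genes was 0.45, and it moved by -0.33 under quantile normalization and by -0.46 under centring. The median signal per array was 134, 139 and 141 in the biphasic tumors, against 96.9, 104 and 101 in the controls. The tumors resembled one another less than the controls did, with Pearson correlations over probe sets of 0.923, 0.926 and 0.906 among the tumors and of 0.969 to 0.975 among the controls. The labels number the samples as biological replicates.

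The control tissue was rich in skeletal muscle transcripts and poor in mesothelial ones. The representative probe sets of 31 sarcomere genes took up 0.0708% to 0.118% of all signal in biphasic tumors, against 4.91% to 5.61% in controls. The mean of 15 mesothelial markers was 11.17 ± 0.25 in biphasic tumors, against 5.04 ± 0.90 in controls (SD, n = 3 each), so the control tissue, labelled peritoneal, was low in most markers that define its lining. The 3′ to 5′ log2 difference of the beta-actin control probe sets also differed, being 0.32, 0.56 and 0.49 in biphasic tumors and -1.24, -0.65 and -1.05 in controls. That of Gapdh was 0.06 to 0.12 in biphasic tumors and 0.10 to 0.16 in controls. For hexokinase the controls were instead the higher, with 0.77, 1.12 and 0.94 in biphasic tumors and 3.91, 3.86 and 1.70 in controls. In bulk tissue, fewer cells of a type and less RNA per cell cannot be told apart. The part of the muscle content and of the 3′ to 5′ difference in the results below was not tested.

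The mesothelial identity of the biphasic tumors was plain in their markers. Of 15 measured markers, 14 were upregulated and none fell, with a median difference of 7.22 beside 0.45 over all genes, or 5.40 with values under 5 raised to 5. The 15 include keratin genes that other epithelia also carry, among them Krt8, Krt18 and Krt19, so this list overlaps the simple keratins described below. Msln, the gene of mesothelin, had 12.80, 13.38 and 13.03 in the biphasic tumors, against 4.82, 3.50 and 6.64 in controls (log2 difference 8.08, SE 0.92, adjusted p = 2.8e-05). Wt1, which encodes the Wilms tumor transcription factor, had 10.88, 11.77 and 11.61 in biphasic tumors, against 3.62, 3.26 and 5.54 in controls (7.28, SE 1.05, adjusted p = 0.00016). All 3 tumors were high in both genes, and the control values lay near or below 5, apart from 1 control for each gene. Upk1b, a uroplakin of the mesothelial and bladder surface, reached 11.85, 12.57 and 12.55 in the tumors, against 3.51, 4.33 and 6.74 in controls. Bnc1, the zinc finger factor basonuclin, had 10.11, 10.81 and 9.07 in tumors, against 2.06, 1.86 and 4.41 in controls. Lrrn4 and Efemp1, both mesothelial surface or matrix genes, rose by 4.03 (SE 0.58) and 2.99 (SE 0.62). The remaining marker was Calb2, the gene of the diagnostic marker calretinin, with 7.71, 7.51 and 7.04 in tumors and 7.27, 7.52 and 7.36 in controls. Its difference was 0.04 (SE 0.18, adjusted p = 0.88), and the groups overlapped.

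Simple keratins had the largest median rise of the gene lists examined. All 5 measured simple epithelial keratins were upregulated, with a median difference of 8.98. Krt8 had 13.89, 13.42 and 11.98 in biphasic tumors, against 3.05, 3.84 and 5.47 in controls (8.98, SE 0.93, adjusted p = 1.3e-05). Its filament partner Krt18 had 13.59, 12.09 and 11.22 in the tumors, against 0.03, 1.81 and 3.66 in controls. Krt19 had 13.22, 13.33 and 10.34 in tumors, against 0.07, 2.89 and 5.50 in controls. In each of these keratins the amosite-induced tumor was the lowest of the 3, though still well above every control. Krt7 followed the same order, with 12.51, 12.18 and 10.39 in tumors, against 3.33, 2.75 and 2.71 in controls. Krt14, a keratin of basal cells in stratified epithelium, was measured at 12.13, 13.39 and 12.76 in tumors, while all 3 controls lay at 1.11 or below. With values under 5 raised to 5, the rises were 7.94 for Krt8, 7.76 for Krt14, 7.30 for Krt18 and 7.13 for Krt19. Without that floor they were 8.98, 12.38, 10.47 and 9.48, so their size depended in part on control values below 5. Among 8 basal and stratified keratins 2 rose, Krt14 and Krt13, a share of 25%, against 27.8% of all genes. Krt5, the usual partner of Krt14, had 6.55, 7.20 and 5.50 in tumors and 5.68, 5.72 and 5.34 in controls (0.84, SE 0.33, adjusted p = 0.056). Without the amosite-induced tumor the count of this list was 5, Krt5 included.

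**Figure D1:**
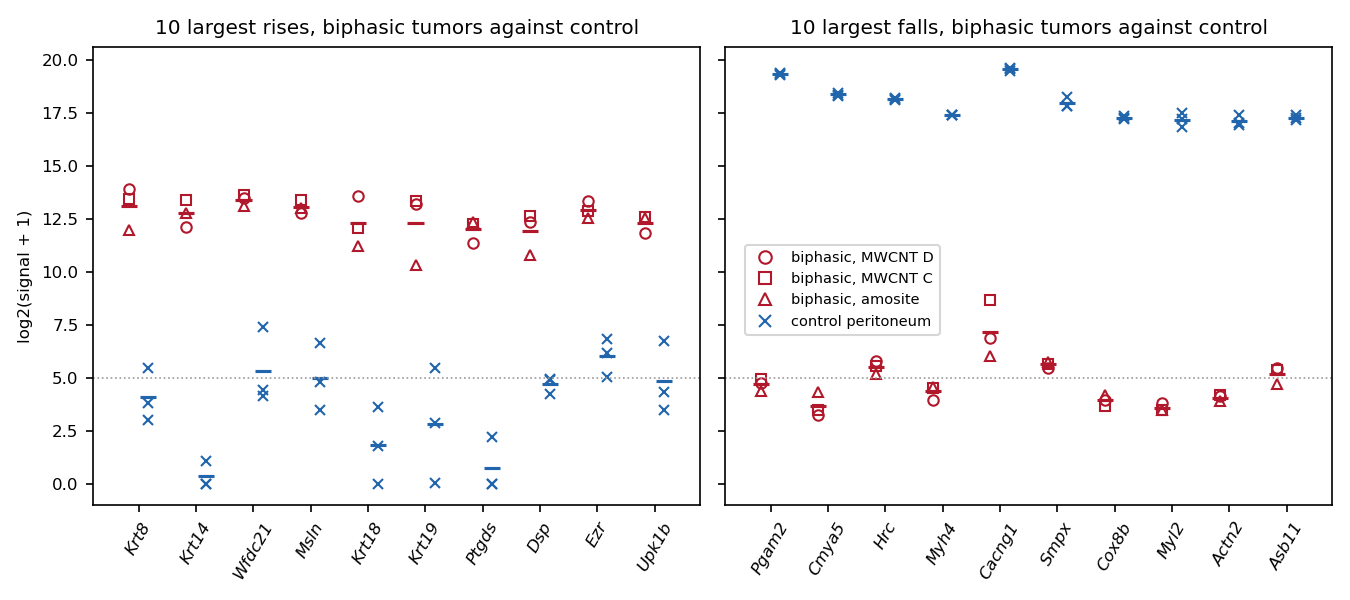
Per-sample log2(signal + 1) of the 10 genes with the largest rises (left) and the 10 with the largest falls (right) in biphasic tumors (red open symbols by inducer) against control peritoneum (blue crosses), with horizontal bars at group means and a dotted line at 5, the floor used for ranking. Keratins, Msln and Upk1b lie above 10 in every tumor, and the 10 muscle-related genes lie between 16.82 and 19.61 in every control.

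The 10 largest rises also held Ezr and Wfdc21. Ezr, the gene of ezrin, which ties the actin cortex of epithelial surfaces to the membrane, had 13.36, 12.86 and 12.55 in biphasic tumors, against 5.05, 6.16 and 6.85 in controls (6.91, SE 0.38, adjusted p = 4.6e-08). Wfdc21, a member of the whey acidic protein domain family, had 13.48, 13.62 and 13.12 in tumors, against 4.15, 4.44 and 7.43 in controls. Both were even across the 3 tumors.

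Junction genes rose with the keratins. Of 11 desmosome genes 8 were upregulated (median difference 4.15), and of 15 genes of tight junctions and epithelial adhesion 11 were upregulated (median 3.06), with no member of either list lower. Dsp, the desmosomal plaque protein desmoplakin, had 12.35, 12.65 and 10.80 in biphasic tumors, against 4.26, 4.93 and 4.98 in controls (7.21, SE 1.04, adjusted p = 0.00016), although the other probe set annotated to Dsp was called lower. The desmosomal cadherin Dsg2 had 11.15, 11.94 and 10.35 in tumors, against 1.32, 1.71 and 4.61 in controls. Cdh1, the gene of E-cadherin, had 13.06, 13.27 and 8.51 in tumors, against 2.12, 3.29 and 2.83 in controls (8.87, SE 1.24, adjusted p = 0.00013). Here the amosite-induced tumor stood apart, at 8.51 for Cdh1 and at 8.0 for the adhesion molecule Epcam, whose values were 11.95 and 12.10 in the MWCNT-induced tumors and 2.78 to 4.11 in controls. Elf3, an epithelial transcription factor, was at 13.77 and 13.46 in the MWCNT-induced tumors but at 7.27 in the amosite-induced one, against 6.31 to 6.56 in controls. Its call (5.04, SE 1.60, adjusted p = 0.021) was lost without either MWCNT-induced tumor or without control 1. The desmosome count fell to 5 without the MWCNT C-induced tumor and to 5 without control 1.

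Mesenchymal genes were raised in the same tumors. Of 20 measured genes of mesenchymal state and epithelial-mesenchymal transition (EMT), 13 were upregulated and none fell (median difference 1.96). Cdh11, a cadherin of mesenchymal cells, had 11.79, 10.54 and 12.07 in biphasic tumors, against 5.22, 6.27 and 6.86 in controls (5.35, SE 0.88, adjusted p = 0.00041). Cdh2, the gene of N-cadherin, had 8.94, 9.85 and 8.07 in tumors, against 4.39, 4.33 and 4.63 in controls (4.50, SE 1.18, adjusted p = 0.0077). Thus both cadherin classes were far above control in every one of the 3 tumors. Vim, the gene of vimentin, was already high in controls, at 11.47, 12.17 and 11.80, and reached 13.29, 13.90 and 13.80 in the biphasic tumors (1.85, SE 0.40, adjusted p = 0.0024). Among EMT transcription factors, Snai1 had 9.58, 9.40 and 8.86 in tumors, against 7.13, 7.23 and 7.29 in controls (2.07, SE 0.61, adjusted p = 0.015). S100a4, a calcium-binding protein of motile fibroblast-like cells, rose by 3.59 (SE 0.87).

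Matrix genes rose in part. Of 28 collagens and crosslinking enzymes, 16 were upregulated and none fell (median 2.00). Col8a1, a short-chain collagen, had 9.99, 11.66 and 10.47 in biphasic tumors, against 6.22, 6.64 and 6.13 in controls (4.38, SE 1.34, adjusted p = 0.018), a call lost without the MWCNT C-induced tumor. Plod2, the lysyl hydroxylase of collagen telopeptides, had 12.83, 12.93 and 11.53 in tumors, against 8.15, 7.92 and 8.39 in controls (4.28, SE 0.67, adjusted p = 0.00029). Lox, which crosslinks collagen through lysine oxidation, rose by 3.28 (SE 0.98, adjusted p = 0.016), a call lost without control 1. The fibroblast list gave 4 rises in 14 (28.6%), a share close to that of all genes. Col1a1, a chain of the main fibrillar collagen, did not meet the threshold, with 13.40, 13.63 and 13.20 in tumors and 12.22, 12.90 and 12.44 in controls (0.89, SE 0.55, adjusted p = 0.2). Thy1, a surface glycoprotein of fibroblasts, did rise, with 9.65, 10.63 and 11.43 in tumors, against 7.04, 7.17 and 7.03 in controls. Of 28 metalloproteinases, inhibitors and related genes, 16 rose and 1, Mmp15, fell. Timp1, a tissue inhibitor of metalloproteinases, had 12.92, 12.41 and 12.66 in biphasic tumors, against 6.49, 7.68 and 6.80 in controls (5.68, SE 0.87, adjusted p = 0.00024).

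In the basement membrane list, 6 of 13 genes rose and 1, Lama2, fell, or 3 and 1 after median centring, and the call of Lama2 was lost without either MWCNT-induced tumor or any 1 of the controls. Agrn, the heparan sulfate proteoglycan agrin, had 10.72, 11.08 and 10.44 in biphasic tumors, against 8.0, 8.25 and 8.19 in controls (2.60, SE 0.24, adjusted p = 4.9e-06). Lama5, a laminin chain, had 12.49, 11.33 and 9.35 in tumors, against 7.30, 7.58 and 7.71 in controls, and of its 2 other probe sets 1 was called higher and 1 lower. Among integrins, the receptors for these proteins, 11 of 19 rose and 2, Itga7 and Itgb6, fell, or 7 and 2 without control 1. Itga3 had 10.10, 10.02 and 9.0 in tumors, against 4.79, 4.48 and 5.35 in controls. Itgb6, an epithelial integrin chain, had 7.02, 8.18 and 3.75 in tumors, against 10.39, 10.19 and 10.41 in controls (-4.01, SE 1.06, adjusted p = 0.0082).

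**Figure D2:**
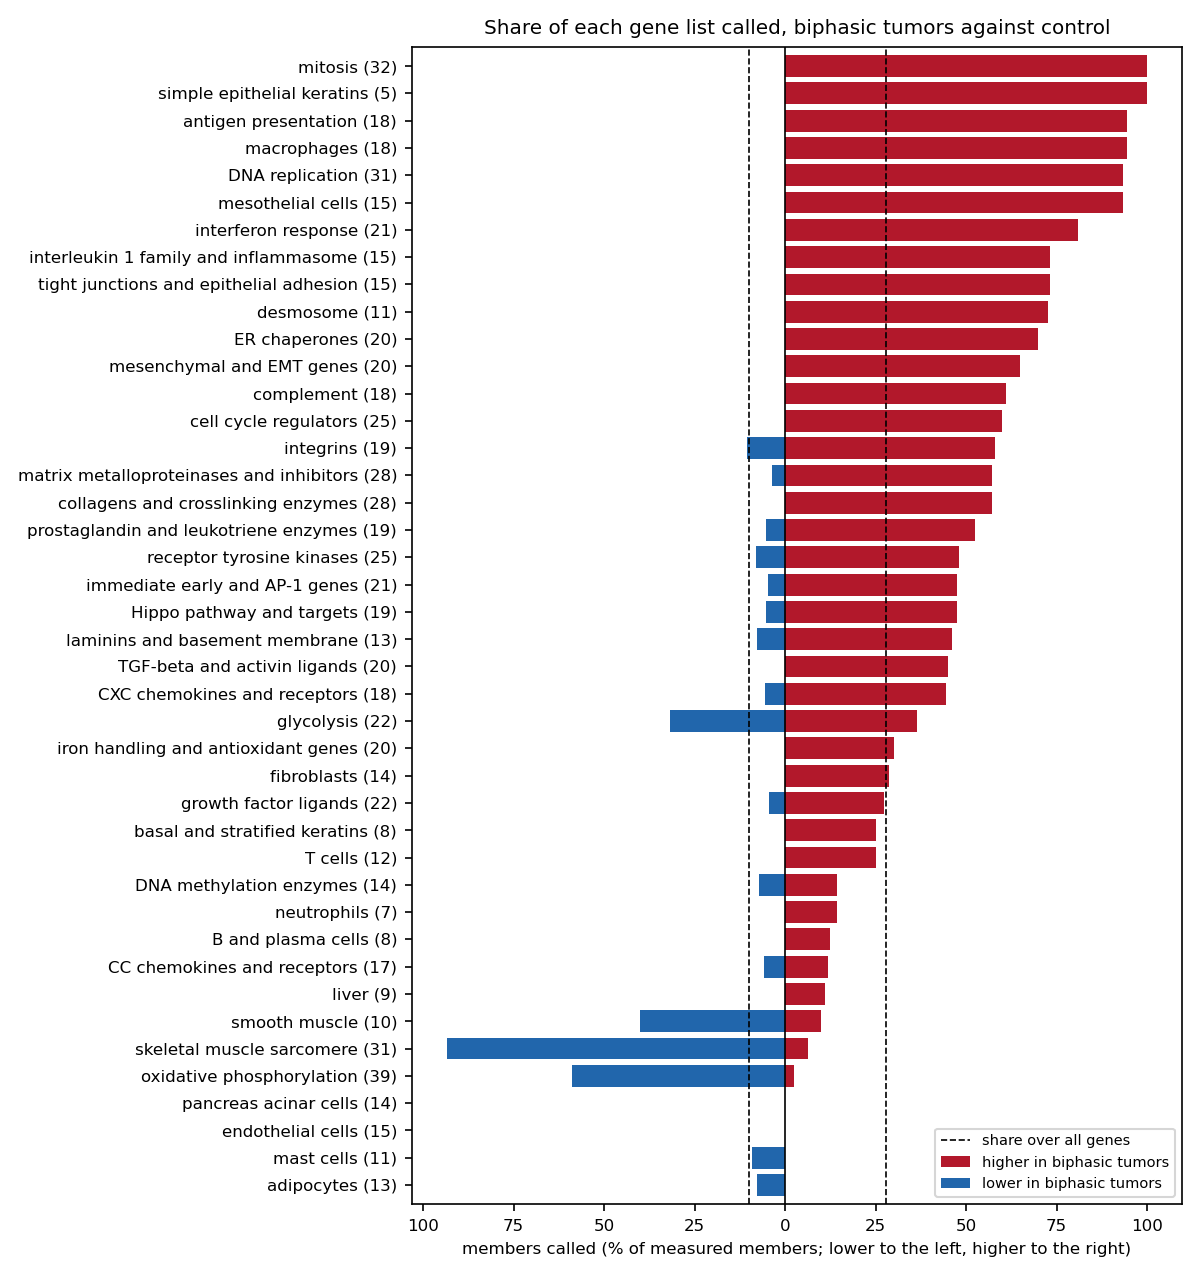
Share of the measured members of each gene list (number in parentheses) that was called higher (red, to the right) or lower (blue, to the left) in biphasic tumors against control peritoneum, in percent, with dashed lines at the share over all genes (27.8% higher, 10.1% lower). Mitosis genes and simple keratins reach 100% on the higher side, and sarcomere genes reach 93.5% on the lower side.

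Proliferation genes were upregulated almost without exception. All 32 measured mitosis genes rose (median difference 4.68), as did 29 of 31 DNA replication genes (median 2.38). Cdk1, the kinase that drives entry into mitosis, had 11.03, 10.64 and 10.53 in biphasic tumors, against 5.67, 5.97 and 5.25 in controls (5.10, SE 0.60, adjusted p = 3.4e-05). Mki67, which encodes the proliferation antigen Ki-67, had 10.91, 10.83 and 9.89 in tumors, against 5.60, 5.81 and 5.53 in controls (4.90, SE 0.65, adjusted p = 8.6e-05). The kinesin Kif20a had 10.38, 10.30 and 9.59 in tumors, against 5.05, 4.22 and 4.88 in controls. In each of these 3 genes the amosite-induced tumor was lowest, and the mitosis list as a whole averaged 8.80 there, the lowest of the 3 tumors. Mcm6, a subunit of the replicative helicase, had 10.76, 10.43 and 9.86 in tumors, against 5.21, 5.95 and 5.57 in controls (4.77, SE 0.35, adjusted p = 8.2e-07). Foxm1, the transcription factor of mitotic genes, had 7.69, 7.26 and 7.0 in tumors, against 1.77, 3.18 and 2.41 in controls (4.87, SE 0.60, adjusted p = 4.8e-05), or 2.32 with values under 5 raised to 5.

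Of 25 measured cell cycle regulators, 15 rose and none fell (median 2.16). Ccnd1, the gene of cyclin D1, had 11.41, 11.48 and 11.75 in biphasic tumors, against 7.78, 8.11 and 7.89 in controls (3.62, SE 0.49, adjusted p = 0.0001). Myc had 10.82, 11.06 and 9.82 in tumors, against 7.35, 6.87 and 7.13 in controls (3.45, SE 0.33, adjusted p = 7.2e-06). E2f1, an activating E2F factor, rose by 4.01 (SE 0.54), and the retinoblastoma relative Rbl1 by 3.86 (SE 0.30). The kinase inhibitor genes Cdkn1a and Cdkn1b, singled out after their values were seen, did not meet the threshold, with differences of 0.23 (SE 0.41, adjusted p = 0.67) and -0.18 (SE 0.23, adjusted p = 0.54). Among 14 DNA methylation genes, 2 rose (14.3%) and 1 fell (7.14%), both below the shares of all genes, 27.8% and 10.1%. The maintenance methyltransferase Dnmt1 had 10.05, 9.78 and 8.92 in tumors, against 6.75, 7.03 and 6.43 in controls (2.85, SE 0.42, adjusted p = 0.00019), and its partner Uhrf1 had 8.57, 7.63 and 7.16 in tumors, against 4.05, 4.31 and 3.73 in controls. The demethylase gene Tet1 had 6.23, 6.54 and 5.48 in tumors, against 8.28, 8.14 and 7.75 in controls (-1.97, SE 0.64, adjusted p = 0.024), a call lost without the amosite-induced tumor or without control 1 or 2.

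The promoters of the 3 mitosis genes of largest difference that had a promoter entry are shown because these genes moved together and belong to a class whose promoters are known for CCAAT boxes and the cell cycle homology region. The 150 bases before the annotated start are given 5′ to 3′ from RefSeq on build GRCr8, with every copy of CCAAT or TTTGAA, on either strand, in capitals. They are Cdk1 at chr20:19265143-19265292 (+ strand), Kif20a at chr18:26504272-26504421 (+ strand) and Mki67 at chr1:199952594-199952743 (- strand).
Cdk1: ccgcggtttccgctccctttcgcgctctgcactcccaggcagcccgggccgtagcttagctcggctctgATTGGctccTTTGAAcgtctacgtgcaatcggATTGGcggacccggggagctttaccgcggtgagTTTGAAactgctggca
Kif20a: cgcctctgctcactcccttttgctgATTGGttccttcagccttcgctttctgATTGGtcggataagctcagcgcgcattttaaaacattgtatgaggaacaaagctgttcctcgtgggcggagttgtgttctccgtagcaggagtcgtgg
Mki67: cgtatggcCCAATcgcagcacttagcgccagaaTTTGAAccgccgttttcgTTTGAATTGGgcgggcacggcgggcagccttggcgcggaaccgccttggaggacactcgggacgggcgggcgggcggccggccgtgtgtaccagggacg
Each of the 3 held 2 copies of CCAAT, which reads ATTGG on the other strand, and Cdk1 and Mki67 also held 2 copies of TTTGAA. In Mki67 1 copy of TTTGAA overlaps ATTGG by 1 base, so both are printed as a single run of capitals. Of the 32 measured mitosis genes, 27 matched a promoter entry. Within 250 bases before the start, CCAAT was present in 21 of these 27 (77.8%), against 34.3% of all 27457 promoters, and TTTGAA in 13 (48.1%), against 16% of all promoters. These counts describe letters and not sites in use.

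The falls were led by genes of striated muscle. Of 31 measured sarcomere genes, 29 were downregulated, with a median difference of -8.55. Myh4, a fast skeletal myosin heavy chain, had 3.99, 4.56 and 4.58 in biphasic tumors, against 17.39, 17.38 and 17.41 in controls (-13.02, SE 0.21, adjusted p = 4e-13). Actn2, the Z-disc protein alpha-actinin 2, had 4.15, 4.20 and 3.92 in tumors, against 16.94, 17.01 and 17.38 in controls. Mypn, another Z-disc protein, had 3.30, 3.22 and 2.65 in tumors, against 16.40, 16.41 and 16.39 in controls. Every tumor was below 5 in these genes, and the controls varied little. The 10 largest falls held Pgam2, the muscle phosphoglycerate mutase, with 4.76, 4.97 and 4.41 in tumors, against 19.33, 19.36 and 19.28 in controls. They also held Cacng1, a subunit of the muscle calcium channel, with 6.89, 8.66 and 6.02 in tumors, against 19.48, 19.61 and 19.56 in controls. Hrc, a calcium-binding protein of the sarcoplasmic reticulum, had 5.83, 5.57 and 5.21 in tumors, against 18.19, 18.16 and 18.10 in controls. The other large falls were in Cmya5, Smpx, Cox8b, Myl2 and Asb11, with differences of -12.06 to -14.67, although another probe set of Myl2 was not called. The 2 sarcomere genes that rose, named here after their values were seen, were the tropomyosins Tpm1 (3.72, SE 0.41) and Tpm2 (3.43, SE 0.90), whose products non-muscle cells also make. When the probe set of largest fold change stood for each gene, none of the 31 rose and all 31 fell, so both tropomyosins were called lower on another probe set. Des, an intermediate filament gene of all muscle, fell by 3.35 on the log2 scale (SE 1.04, adjusted p = 0.019), and its call was lost without the MWCNT C-induced tumor, whose value was 7.89 beside 11.25 and 11.69 in the other tumors.

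For comparison with the mitosis genes, the same stretch is shown for the 3 sarcomere genes of largest difference that had a promoter entry, with CAGCTG (the E-box form bound by myogenic factors), CATTCC (the MCAT element) and TATAAA, on either strand, in capitals. They are Myh4 at chr10:52421998-52422147 (+ strand), Actn2 at chr17:62834905-62835054 (+ strand) and Mypn at chr20:25435404-25435553 (+ strand), on GRCr8.
Myh4: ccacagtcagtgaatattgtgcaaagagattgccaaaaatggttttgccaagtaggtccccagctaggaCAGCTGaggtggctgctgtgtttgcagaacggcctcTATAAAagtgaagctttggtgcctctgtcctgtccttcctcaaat
Actn2: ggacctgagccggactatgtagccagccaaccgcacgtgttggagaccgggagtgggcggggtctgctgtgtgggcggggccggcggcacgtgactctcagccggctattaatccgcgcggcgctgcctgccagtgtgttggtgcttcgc
Mypn: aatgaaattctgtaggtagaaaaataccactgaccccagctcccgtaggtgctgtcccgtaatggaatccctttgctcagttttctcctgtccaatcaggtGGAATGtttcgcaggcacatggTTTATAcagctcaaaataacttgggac
Myh4 held CAGCTG and TATAAA, Mypn held CATTCC (read as GGAATG) and TATAAA (read as TTTATA), and Actn2 held none of the 3. Of 31 sarcomere genes 27 matched a promoter entry. CAGCTG was present within 250 bases in 9 of them (33.3%), against 11.9% of all promoters, TATAAA in 9 (33.3%), against 13.1%, and CATTCC in 6 (22.2%), against 11.8%. In the same 27, CCAAT was present in 13 (48.1%), also above the 34.3% of all promoters, and TTTGAA in 2 (7.41%), against 16%.

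Of 39 oxidative phosphorylation genes, 23 were downregulated and 1, Cox8a, was upregulated (median -1.23), and after median centring the count of falls was 38. The muscle isoforms Cox8b and Cox6a2 of cytochrome c oxidase had the largest falls, Cox8b with 3.95, 3.70 and 4.21 in biphasic tumors, against 17.35, 17.22 and 17.25 in controls. A complex I subunit that all tissues use, Ndufs3, had 9.77, 10.13 and 10.35 in tumors, against 12.39, 12.40 and 12.39 in controls (-2.31, SE 0.21, adjusted p = 4.9e-06). Glycolysis divided, with 8 of 22 genes up and 7 down, or 7 up and 11 down after median centring, and the 4 largest differences were all falls, in Pgam2, Slc2a4, Eno3 and Pdk4. Slc2a4, the insulin-responsive glucose transporter of muscle and fat, had 5.82, 5.16 and 7.32 in tumors, against 12.91, 12.79 and 12.92 in controls. Slc2a1, the general glucose transporter, named here after its values were seen, ran the other way, with 11.51, 11.42 and 8.72 in tumors, against 5.84, 6.45 and 6.38 in controls (4.32, SE 0.97, adjusted p = 0.0031). The muscle list moved with these falls, as given above, and its part in them was not tested.

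Of 20 endoplasmic reticulum chaperone genes, 14 rose and none fell (median 1.54), or 10 after median centring with 1 lower. Pdia4, a protein disulfide isomerase, had 11.74, 12.09 and 12.17 in biphasic tumors, against 8.52, 8.77 and 8.55 in controls (3.39, SE 0.29, adjusted p = 3.2e-06). Pdia3 had 12.95, 13.26 and 13.10 in tumors, against 10.24, 10.66 and 10.26 in controls. Both differed little among the 3 tumors. Of 20 iron handling and antioxidant genes 6 rose (30%), near the share of all genes, among them the heme oxygenase Hmox1 (3.35, SE 0.68). Gpx2, the gastrointestinal glutathione peroxidase, was uneven, with 10.35, 12.56 and 7.06 in tumors, against 3.53, 3.46 and 2.47 in controls.

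Macrophage markers were upregulated in 17 of 18 cases (median difference 2.93), the exception being the scavenger receptor Cd163, with 11.13, 4.33 and 10.39 in biphasic tumors and 7.02, 7.94 and 7.78 in controls. Their summed signal was 0.127% to 0.452% of the total in biphasic tumors, against 0.0185% to 0.0429% in controls. Gpnmb, a glycoprotein of lipid-laden macrophages and of some tumor cells, had 12.33, 11.70 and 12.74 in biphasic tumors, against 6.57, 8.45 and 6.74 in controls (5.0, SE 0.59, adjusted p = 3.4e-05). Cd68, a lysosomal macrophage protein, had 11.14, 9.82 and 11.70 in tumors, against 6.01, 7.89 and 7.07 in controls (3.89, SE 0.59, adjusted p = 0.00023). The MWCNT C-induced tumor was the lowest in both, and its macrophage list averaged 8.95, against 11.41 in the highest tumor. Complement genes gave 11 rises in 18, a count of 7 after quantile normalization or centring and also without the MWCNT D-induced tumor, without the amosite-induced tumor or without control 1. The macrophage product C1qb had 12.34, 9.72 and 12.81 in tumors, against 8.19, 9.40 and 8.35 in controls, so the MWCNT C-induced tumor lay only just above the highest control. C3, the central complement component, had 8.79, 10.88 and 10.32 in tumors, against 3.91, 5.81 and 4.40 in controls (5.29, SE 0.89, adjusted p = 0.00046).

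Antigen presentation and interferon genes rose broadly. Of 18 antigen presentation genes 17 were upregulated (median 2.77), and of 21 interferon response genes 17 were (median 3.06), with no falls in either. Tap1, the peptide transporter of the class I pathway, had 8.90, 8.73 and 9.68 in biphasic tumors, against 2.11, 4.57 and 5.11 in controls (5.17, SE 0.63, adjusted p = 4.5e-05), although the other Tap1 probe set was not called. The immunoproteasome subunit Psmb8 had 10.55, 11.22 and 11.38 in tumors, against 7.06, 7.50 and 7.30 in controls. Isg15, a ubiquitin-like interferon product, had 9.75, 8.85 and 11.97 in tumors, against 4.02, 5.61 and 4.80 in controls (5.38, SE 1.01, adjusted p = 0.00097). The amosite-induced tumor was highest in Isg15 and in the interferon list as a whole, which averaged 10.71 there and 8.61 in the lowest tumor. Bst2 was also highest in that tumor (12.22, 12.81 and 13.20). Isg20, by contrast, was lowest there (11.30, 11.92 and 9.18), and Oasl was highest in the MWCNT D-induced tumor (10.43, 8.45 and 9.79). The interferon count was 9 without the amosite-induced tumor and 11 without control 1 or control 2.

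Inflammatory mediators rose selectively. In the interleukin 1 and inflammasome list, 11 of 15 genes were upregulated (median 2.26). Il18, an inflammasome-activated cytokine, had 11.27, 11.74 and 10.62 in biphasic tumors, against 4.07, 5.51 and 4.89 in controls (6.39, SE 0.50, adjusted p = 1.3e-06). Il1rl1, the receptor for interleukin 33, had 10.40, 6.84 and 11.60 in tumors, against 2.84, 3.43 and 2.38 in controls (6.73, SE 1.64, adjusted p = 0.0052), and with values under 5 raised to 5 its adjusted p was 0.054. Gsdmd, the pore-forming gasdermin, had 8.97, 8.90 and 9.91 in tumors, against 6.05, 6.16 and 5.68 in controls. Tnf was not among the DEGs, with 6.49, 5.73 and 6.37 in tumors and 6.12, 6.17 and 6.10 in controls (adjusted p = 0.89). Il6 had 8.81, 3.13 and 5.27 in tumors, with all controls at 0.12 or below, and its difference of 5.69 (adjusted p = 0.011) was 1.36 (adjusted p = 0.44) with values under 5 raised to 5.

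Of 18 CXC chemokines and receptors, 8 rose and 1 fell, and 4 rises remained in the count when values under 5 were raised to 5. Cxcl13, a B cell attractant, had 13.43, 10.20 and 10.58 in biphasic tumors, against 4.86, 4.94 and 5.54 in controls (6.29, SE 1.16, adjusted p = 0.00087). Cxcl16, a membrane-bound chemokine and scavenger receptor, had 11.13, 11.19 and 10.86 in tumors, against 5.96, 6.75 and 6.73 in controls (4.58, SE 0.44, adjusted p = 7.8e-06). Cxcl14 was the one that fell, with 4.30, 3.79 and 5.70 in tumors, against 9.24, 9.22 and 9.25 in controls. Of 17 CC chemokines and receptors 2 rose (11.8%, against 27.8% of all genes). In this list 1 gene, Ccl21, fell (-4.78, SE 1.81, adjusted p = 0.046), a call lost on leaving out any 1 sample of either group. Only 1 rose after quantile normalization or median centring, and 6 rose when biphasic and control arrays alone were fitted. The monocyte attractant Ccl2 had 11.20, 11.15 and 11.35 in tumors, against 7.16, 7.48 and 6.31 in controls (4.25, SE 0.87, adjusted p = 0.0018). Of 19 prostaglandin and leukotriene genes, 10 rose and 1, Ptges2, fell. Ptgds, a prostaglandin D synthase, had 11.36, 12.28 and 12.36 in tumors, while the controls had 0.01, 0.01 and 2.23. The prostacyclin synthase Ptgis had 12.74, 11.67 and 11.88 in tumors, against 6.49, 6.74 and 6.62 in controls (5.49, SE 0.89, adjusted p = 0.00037).

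With biphasic and control arrays alone in the fit, 6 of 12 T cell genes and 4 of 7 neutrophil genes rose, more than in the fit of all arrays. In the fit of all arrays, T cell markers gave 3 rises in 12 (Cd8b, Cd28 and Gzmb), or 1 with values under 5 raised to 5, and that of Gzmb was lost without the MWCNT D-induced tumor, the amosite-induced tumor or control 1. The signalling chain Cd3e had 6.96, 5.93 and 7.14 in biphasic tumors and 5.43, 5.44 and 5.53 in controls (1.21, SE 1.12, adjusted p = 0.4). The single riser of 8 B and plasma cell genes was Sdc1, the proteoglycan syndecan 1, which epithelial cells also carry, with 11.22, 12.05 and 10.52 in tumors, against 5.33, 6.04 and 6.45 in controls. None of 15 endothelial genes was called in limma, Pecam1 having 9.85, 10.18 and 8.77 in tumors and 8.70, 8.90 and 9.26 in controls. Of 7 neutrophil genes 1 rose, the iron-binding lipocalin Lcn2 (3.09, SE 1.14, adjusted p = 0.041), and of 9 liver genes 1 rose, the fibrinogen chain Fga (1.38, SE 0.41, adjusted p = 0.016). The call of Lcn2 was lost on leaving out any 1 of the 6 samples, and that of Fga without the MWCNT D-induced tumor or control 1. With all arrays, 25% of T cell, 12.5% of B and plasma cell, 14.3% of neutrophil and 11.1% of liver genes rose, against 27.8% of all genes. Of 11 mast cell genes only the chymase Cma1 was called, with 2.06, 4.12 and 6.30 in tumors, against 7.36, 9.11 and 8.08 in controls, and 4 of the 11 fell without the amosite-induced tumor and 2 after quantile normalization or median centring. Of 13 adipocyte genes only Plin4, a lipid droplet coat protein, was called, with a difference of -5.19 (SE 1.74, adjusted p = 0.027), a call lost without the MWCNT D-induced or MWCNT C-induced tumor or without any 1 of the controls, whereas 5 of the 13 fell without the amosite-induced tumor. Adipocyte genes split the tumors, Adipoq being at 4.30 and 5.48 in the MWCNT-induced tumors and at 11.46 in the amosite-induced one, against 9.89, 11.07 and 11.14 in controls.

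**Figure D3:**
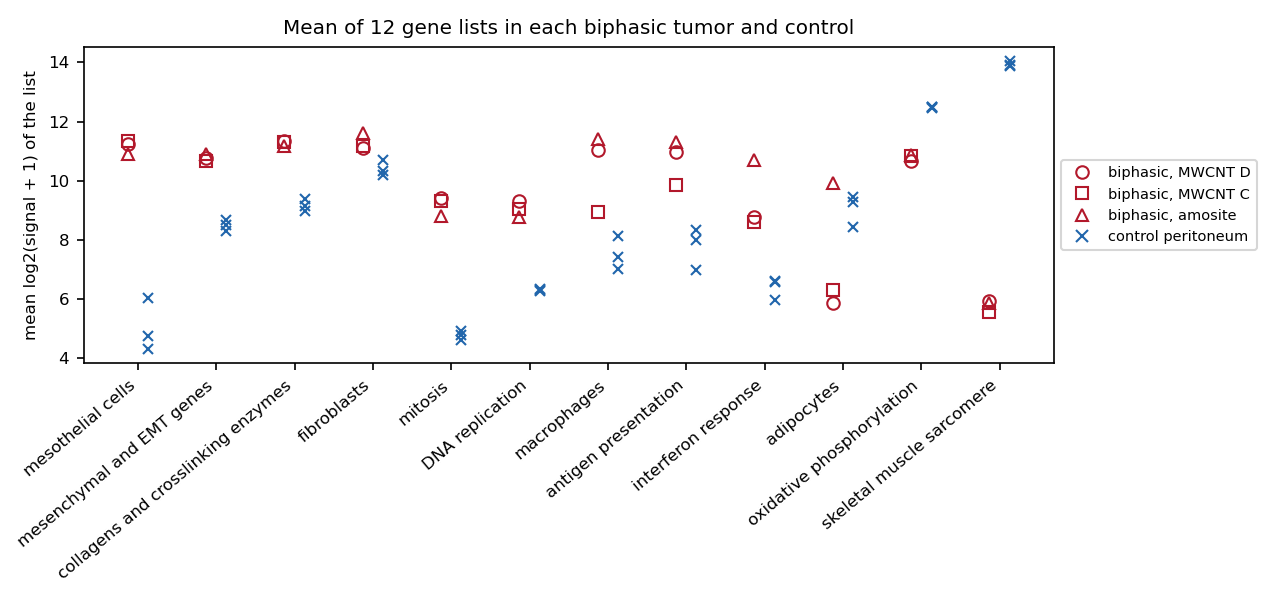
Mean log2(signal + 1) of 12 gene lists in each biphasic tumor (red, by inducer) and each control (blue crosses). Every list except the adipocyte one separates the groups. The MWCNT C-induced tumor is lowest of the tumors in macrophage genes at 8.95, and the amosite-induced tumor is highest in adipocyte genes at 9.92, above the controls.

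Among 20 genes of TGF-beta and activin ligands and their regulators, 9 rose and none fell. Ltbp2, a latent TGF-beta binding protein, had 8.27, 9.92 and 10.07 in biphasic tumors, against 3.12, 4.11 and 2.59 in controls. Inhbb, an activin subunit, had 9.76, 9.49 and 11.23 in tumors, against 5.50, 6.25 and 6.66 in controls (4.02, SE 0.85, adjusted p = 0.0022), and Inhba had 10.97, 11.06 and 8.82 in tumors, against 6.23, 6.36 and 5.84 in controls, a call lost without the MWCNT D-induced tumor, the MWCNT C-induced tumor or control 3. Of 25 receptor tyrosine kinases, 12 rose and 2 fell, or 7 and 2 after median centring. Epha2, an ephrin receptor, had 9.84, 9.77 and 8.0 in tumors, against 5.14, 5.36 and 5.83 in controls, and Fgfr3 had 9.11, 10.35 and 8.49 in tumors, against 5.33, 5.65 and 6.22 in controls. Of 22 growth factor ligands, 6 rose (27.3%, against 27.8% of all genes) and 1 fell (4.55%), and 3 rose after median centring or with values under 5 raised to 5. Tgfa, an EGF receptor ligand, had 9.82, 10.78 and 6.81 in tumors, against 0.01, 2.35 and 3.79 in controls, whereas Egf itself had 6.57, 7.89 and 8.11 in tumors, against 12.65, 12.27 and 12.22 in controls (-4.86, SE 0.38, adjusted p = 1.2e-06).

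In the Hippo pathway, which restrains the TEAD transcription factors, 9 of 19 genes rose and 1 fell, or 5 and 1 after quantile normalization. Tead2 had 8.53, 8.94 and 8.23 in biphasic tumors, against 4.64, 4.10 and 4.63 in controls (4.11, SE 0.39, adjusted p = 6.8e-06). Tead4, the single member that fell, had 7.28, 7.65 and 6.89 in tumors, against 9.58, 9.53 and 9.46 in controls (-2.25, SE 0.37, adjusted p = 0.00041). Ajuba, a LIM protein that binds the kinases of the pathway, had 10.57, 10.90 and 9.40 in tumors, against 6.79, 6.78 and 6.97 in controls. The tumor suppressor Nf2, singled out after its values were seen, had 9.31, 9.82 and 8.94 in tumors and 9.85, 9.74 and 9.74 in controls (-0.42, SE 0.27, adjusted p = 0.22).

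Genes that the study itself singled out as linked to mesothelioma were chosen on these samples, so their direction is not independent evidence. Of 33 measured, 24 rose and 4 fell. Spp1, the secreted phosphoprotein osteopontin, had 12.86, 11.64 and 12.52 in biphasic tumors, against 0.03, 6.55 and 6.33 in controls (8.03, SE 1.73, adjusted p = 0.0024). Src, a membrane-associated tyrosine kinase, had 10.13, 10.35 and 9.77 in tumors, against 6.80, 6.59 and 6.86 in controls (3.33, SE 0.25, adjusted p = 8.9e-07). Tuba8, a tubulin chain, had 6.29, 6.44 and 6.04 in tumors, against 13.74, 13.72 and 13.84 in controls (-7.51, SE 0.20, adjusted p = 2.2e-11). Of the 6 genes followed up by RT-qPCR, 4 were lower here. The receptor tyrosine kinase Ret had 6.24, 6.20 and 6.16 in tumors, against 12.35, 12.12 and 11.88 in controls (-5.92, SE 1.59, adjusted p = 0.009), with 1 of its 2 other probe sets called in the same direction. Plaat1, a phospholipase and acyltransferase, had 6.36, 7.25 and 5.65 in tumors, against 10.74, 10.81 and 10.67 in controls (-4.32, SE 0.63, adjusted p = 0.00017). Of 21 immediate early and AP-1 genes, 10 rose and 1 fell, and that one, the orphan nuclear receptor Nr4a1, had 6.87, 6.47 and 5.89 in tumors, against 10.10, 10.22 and 10.23 in controls. Fgfr4 had 6.18, 5.38 and 5.40 in tumors, against 8.63, 8.07 and 8.26 in controls. The small GTPase gene Rnd3 had 10.43, 11.18 and 10.07 in tumors, against 7.81, 7.83 and 8.15 in controls (2.63, SE 0.58, adjusted p = 0.0029). Gadd45b, a stress-induced gene, had 9.25, 8.86 and 8.91 in tumors and 8.13, 8.30 and 8.12 in controls, and at 0.83 (SE 0.74, adjusted p = 0.38) it was not called, although the groups did not overlap.

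Biphasic tumors were next set against the other tumor types, in the same fit and in which the controls play no part in the difference. Against the 5 sarcomatoid tumors, 73 probe sets (0.235%) were higher and 4 (0.0129%) lower in biphasic tumors. Those higher held 1 of 5 simple keratins, 1 of 8 basal keratins and 4 of 15 mesothelial markers, and no desmosome or tight junction gene of the lists. Krt7 had 12.51, 12.18 and 10.39 in biphasic tumors, and in sarcomatoid tumors it ran up to 8.10 with a mean of 5.96 (5.74, SE 0.66, adjusted p = 0.01). Krt14 averaged 12.76 ± 0.63 in biphasic tumors (n = 3) and 7.17 ± 1.40 in sarcomatoid tumors (n = 5), a difference of 5.59 (SE 0.71, adjusted p = 0.012). Prr15l, a gene of unsettled function, had 10.45, 11.16 and 9.31 in biphasic tumors and at most 7.34 in sarcomatoid ones (5.99, SE 0.83, adjusted p = 0.015). Fxyd3, a regulator of the sodium pump, and Chst4, a sulfotransferase, differed by 4.94 (SE 0.85) and 4.93 (SE 0.80). These 5 genes had the largest called rises, a choice that favours groups without overlap, and in none of them did the biphasic and sarcomatoid tumors overlap.

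Further members of the gene lists were in this set. Bnc1 was higher by 4.80 (SE 0.76, adjusted p = 0.028), Lrrn4 by 3.24 (SE 0.52), Efemp1 by 3.17 (SE 0.56) and Agrn by 2.21 (SE 0.21, adjusted p = 0.002) in biphasic than in sarcomatoid tumors. Tead2 was higher by 2.10 (SE 0.35) and Bmp6, a bone morphogenetic protein, by 2.98 (SE 0.52). Lower in biphasic tumors were Tmem163 and Cblb. Tmem163, a zinc transporter, had 3.77, 3.78 and 3.92 in biphasic tumors and a mean of 7.87 in sarcomatoid tumors (-4.04, SE 0.51, adjusted p = 0.012). Cblb, a ubiquitin ligase, had 8.47, 8.62 and 8.64 in biphasic tumors and a mean of 9.81 in sarcomatoid tumors (-1.24, SE 0.17, adjusted p = 0.017). No member of the mitosis, macrophage, mesenchymal or collagen lists was called between biphasic and sarcomatoid tumors, with median differences of -0.09, -0.40, 0.16 and 0.66. With the inducer as a block, in a fit of the tumors without the controls, only 1 probe set was left, which was lower, and no probe set was higher. Leaving out single tumors moved the count of higher probe sets between 11 (without the MWCNT C-induced biphasic tumor) and 155 (without the amosite-induced biphasic tumor), and without the sarcomatoid tumor rich in pancreas transcripts it was 141.

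Against the 3 epithelioid tumors, limma called no probe set in either direction (0%), with 1548 of 31042 at an unadjusted p below 0.05. The median difference was 0.01 for the mesothelial markers, 0.82 for simple keratins and 0.13 for mesenchymal genes. Msln averaged 13.07 ± 0.29 in biphasic tumors and 13.06 ± 0.23 in epithelioid tumors (n = 3 each). Krt8 averaged 13.10 ± 1.00 in biphasic and 12.28 ± 0.32 in epithelioid tumors (0.82, adjusted p = 0.97). With 3 tumors a group, this count does not show that the types are alike. Leaving out single tumors gave at most 2 higher and 20 lower probe sets, both the 20 and 1 higher probe set arising without the MWCNT B-induced epithelioid tumor.

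**Figure D4:**
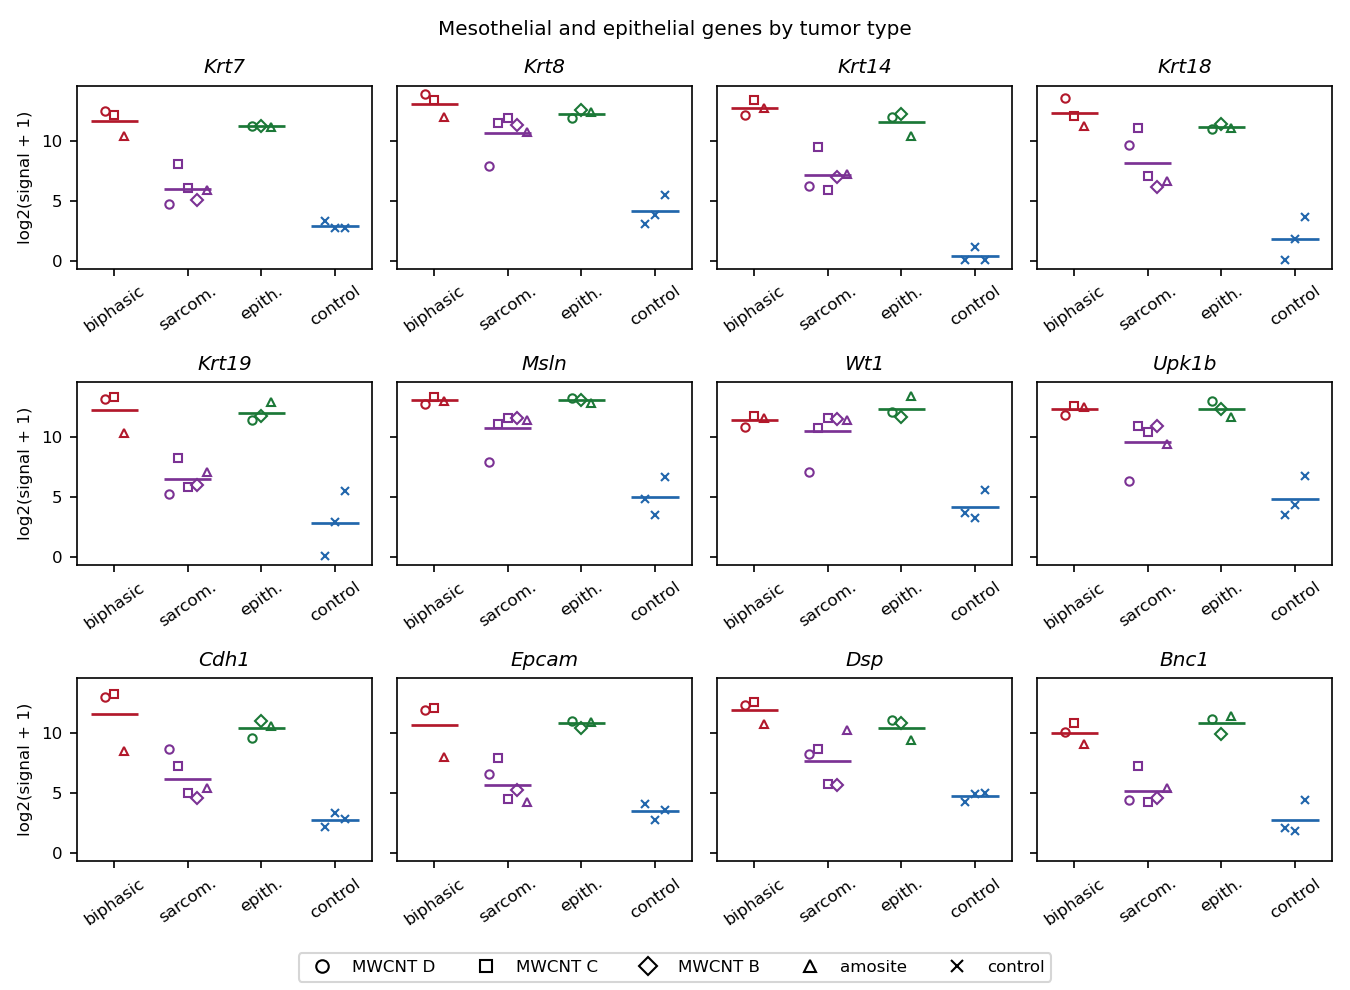
Log2(signal + 1) of 12 mesothelial and epithelial genes in biphasic (red), sarcomatoid (purple), epithelioid (green) and control (blue) samples, with symbols by inducer and horizontal bars at group means. Biphasic tumors lie with the epithelioid ones in Krt7, Krt14, Krt19 and Bnc1, above the sarcomatoid tumors, and the control mean is the lowest in every panel.

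The 3 biphasic tumors differed sharply in some genes. Of 3761 genes with a value of at least 10 in 1 of them, 517 spanned more than 2 log2 units over the 3 tumors and 166 more than 4, values under 5 being raised to 5. Among the 166, the highest value was in the MWCNT D-induced tumor for 41, in the MWCNT C-induced tumor for 56 and in the amosite-induced tumor for 69. With 1 tumor per inducer these are descriptions without a test. The gene with the widest range was Sult1b1, a cytosolic sulfotransferase, with 4.19, 17.43 and 3.98 in biphasic tumors, against 4.53, 4.36 and 4.57 in controls. Agr2, a disulfide isomerase of mucus-secreting cells, had the same single high tumor among the 3, with 5.04, 14.41 and 5.08, against 5.75, 5.85 and 5.90 in controls. Both genes were also high in other tumor types, Sult1b1 at up to 13.09 and Agr2 at up to 11.30 in epithelioid tumors. In sarcomatoid tumors Agr2 reached 9.90, while Sult1b1 was at most 4.28. In the MWCNT D-induced tumor alone, Lypd8 reached 16 (6.51 and 6.09 in the other tumors, 5.24 to 5.75 in controls), Tff1 15.30 (6.30 and 5.43, with 5.49 to 5.64 in controls) and Hnf4a 16.58 (8.29 and 8.29, with 6.95 to 7.72 in controls). Lypd8 and Tff1 are secreted or surface proteins of gut epithelium, and Hnf4a is a transcription factor of gut and liver. Mfap5, a microfibril protein of connective tissue, was highest in the amosite-induced tumor, with 9.05, 5.02 and 13.63 in tumors and 11.16 to 11.55 in controls.

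Several of these genes are known from stomach and intestine, so 18 genes of gastrointestinal epithelium, chosen after the values were seen, were added as a description. Their summed signal was 1.7% of the total in the MWCNT D-induced tumor, 0.278% in the MWCNT C-induced and 0.00896% in the amosite-induced tumor, against 0.00475% to 0.00498% in controls. At 8 or above were 12 of the 18 in the MWCNT D-induced tumor, 8 in the MWCNT C-induced, 1 in the amosite-induced and 0 in the controls. The list was also raised in 2 of the epithelioid tumors, at 0.106% (MWCNT B) and 0.13% (amosite) of signal. A sarcomatoid tumor induced by MWCNT C had 0.0202% of signal, with 4 of the 18 at 8 or above. Gkn1, a secreted protein of the gastric mucosa, had 13.90, 10.88 and 7.08 in tumors, against 4.86, 4.87 and 4.44 in controls. Gkn2, its relative, had 12.93, 10.39 and 6.23 in tumors, against 4.80, 4.57 and 4.57 in controls. Cldn18, a claudin of stomach and lung, had 11.05, 13.12 and 3.74 in tumors, against 3.83, 3.55 and 3.69 in controls. Cdh17, the liver-intestine cadherin, had 11.65, 10.33 and 6.65 in tumors, against 4.88, 4.45 and 0.30 in controls. The list was not high throughout, since Fabp2, an enterocyte fatty acid-binding protein, had 6.11, 5.59 and 5.11 in tumors and 5.94, 5.83 and 5.93 in controls, and Muc5ac, a gastric mucin, had at most 5.64. Cdx2, an intestinal transcription factor, had 8.39, 6.68 and 6.71 in tumors and 7.97, 7.69 and 8.0 in controls. Cdh1, Epcam, Elf3 and the simple keratins Krt7, Krt8, Krt18 and Krt19 were also higher in the same 2 tumors than in the amosite-induced one. The part of gastrointestinal epithelium in those values was not tested. Without the MWCNT D-induced tumor 6933 probe sets rose and 2909 fell against control, and without the MWCNT C-induced tumor 7067 rose and 3234 fell.

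**Figure D5:**
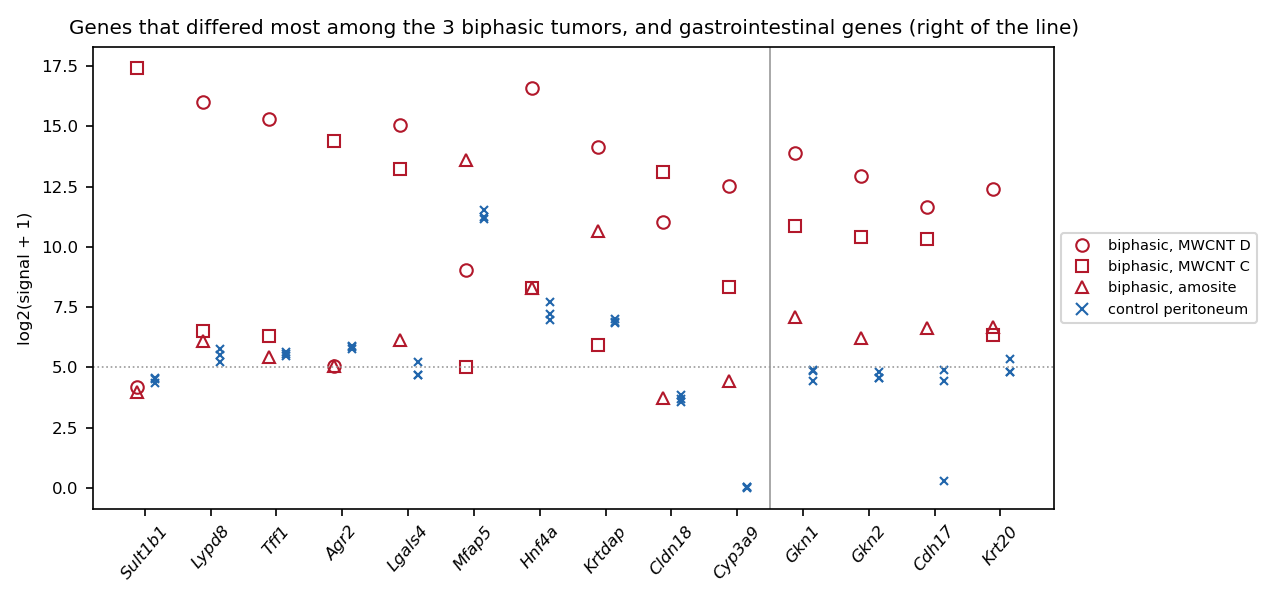
Log2(signal + 1) of the 10 genes with the widest range over the biphasic tumors and, right of the vertical line, of 4 gastrointestinal genes chosen after the values were seen, in the 3 biphasic tumors (red, by inducer) and the 3 controls (blue crosses), with a dotted line at 5. In each of the 10 genes the highest tumor is at 12.54 or more, and of these 3 tumors only the MWCNT C-induced one is high in Sult1b1 and Agr2.

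Pancreas acinar genes, which were high in 2 of the other tumors of the series, took 0.00573% to 0.0104% of signal in biphasic tumors and 0.00304% to 0.00356% in controls, and none of the 14 was called. With biphasic and control arrays alone in the fit, 8 of the 14 were called higher and 1 lower. Of 10 smooth muscle genes 4 fell and 1 rose, and 2 fell without the MWCNT C-induced tumor or with the replicate number as a block. The riser was Acta2, the smooth muscle actin also made by activated fibroblasts, with 10.91, 10.80 and 9.83 in biphasic tumors, against 7.05, 7.42 and 7.49 in controls (3.19, SE 0.34, adjusted p = 1.7e-05). Synpo2, an actin-binding protein of muscle, had 6.22, 4.43 and 8.15 in tumors, against 12.77, 12.74 and 12.80 in controls, and 2 of its 3 other probe sets were not called.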

How the data were processed

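Total RNA of 11 rat mesotheliomas and 3 control peritoneal samples was labelled with a 3′ in vitro transcription kit and hybridised to 1-colour Affymetrix whole-genome rat arrays, 1 array per sample. The deposited table holds linear intensity values that the authors made with the PLIER algorithm, which combines the probes of each probe set into a single signal. Per the submitters' processing notes, Transcriptome Analysis Console was used, with no version given in the sources used here. The signals were not renormalized. Of 31099 probe sets, 57 array controls were removed and 31042 were tested as log2(signal + 1).

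A model with the 4 tissue groups as terms was fitted to all 14 arrays with limma 3.58.1 in R 4.3.3 (lmFit, eBayes), and p-values were adjusted by the Benjamini-Hochberg method over 31042 probe sets. A probe set was called when it changed more than 2-fold, up or down, with an adjusted p under 0.05. The fit was tested on simulated data. In all, 20826 probe sets had 1 gene symbol, 436 had several and 9780 had none, and names were updated through RefSeq where possible. For each of 14217 genes the brightest probe set, by its mean over the 14 arrays, stood for the gene, and 4525 genes had several. Named were the 10 largest rises and falls among called genes whose groups did not overlap (values under 5 raised to 5, higher group mean at least 8). Also named were up to 4 called genes per list and any gene of lists with at most 16 members. To these were added up to 5 genes each way against other tumor types, the 10 widest ranges in biphasic tumors, and genes the study names. Named outside this rule, after their values were seen, were Snai1, Mmp15, Foxm1, Cdkn1a, Cdkn1b, Tpm1, Tpm2, Cox8a, Slc2a1, Cd163, Il6, Tnf, Ptges2, Itga7, Tead4, Nf2 and the gastrointestinal genes. The tumors and gene lists were chosen with earlier results of these data known. The number of arrays limits the precision, and the p-values measure only the spread between these samples. That spread was pooled over the 4 groups, so an SE of biphasic against control also takes in the sarcomatoid and epithelioid tumors. For Ret, the SE was 1.59, beside SDs of 0.04 in biphasic tumors, 0.23 in controls and 3.09 in sarcomatoid tumors. Alternatives were quantile normalization, median centring, a pseudocount of 16, a floor at 5 and a filter at a mean of 6. Others were a block for inducer (tumors alone), a block for replicate number, fewer groups in the fit and leaving out each sample. The probe set of largest fold change for each gene was also used.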

Additional observations from a re-analysis of the deposited data

Results flagged for a closer look

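Genes that moved against control were compared between tumor types by the contrast of biphasic with sarcomatoid tumors, in which the controls cancel. Members of the gene lists called in this way were all higher in biphasic tumors. The difference was 5.74 for Krt7, 5.59 for Krt14, 2.21 for Agrn, 2.10 for Tead2 and 2.98 for Bmp6 on the log2 scale. The mesothelial markers Bnc1, Lrrn4 and Efemp1, given above, were called as well. With the inducer as a block 0 probe sets were higher, so none of these calls was kept. That fit also left out the control arrays, so the parts of the block and of the missing controls in this loss were not told apart. Of 3 further probe sets of Bmp6, 1 was not called against control.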

How the results depend on the processing

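Against control, median centring gave 4625 probe sets higher and 5506 lower, and quantile normalization gave 4793 lower. Leaving out 1 sample gave 6585 to 7129 higher and 2901 to 3280 lower, and the replicate block 6884 and 3045. Against sarcomatoid tumors, the higher count was 0 with the inducer as block and 9 with the replicate block, and the lower count was 2 with the filter on low means, 1 with the inducer block, 8 with quantile normalization and 1 with the replicate block. Leaving out 1 tumor there gave 11 to 155 higher and 2 to 37 lower. Against epithelioid tumors, the floor at 5 gave 1 lower, and leaving out 1 tumor gave 0 to 2 higher and 0 to 20 lower. With the probe set of largest fold change for each gene, the sarcomere list had 0 rises and 31 falls, so Tpm1 and Tpm2 turned to lower. The cause of these shifts was not tested, apart from fewer samples in the leave-outs. Biphasic and control samples of the same number shared only a number, with correlations of their deviations of 0.018, -0.031 and 0.047.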
